A study of Rattus norvegicus with 6 samples.

Results

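The genes described here are 7 of the 14217 genes that the array measured with a probe set of their own: Thra and Thrb, which encode the thyroid hormone receptors, the deiodinases Dio2 and Dio3, the receptor corepressor Hr, and the hormone-responsive genes Thrsp and Klf9. All 7 had at least 1 probe set that the platform annotation pairs with that gene alone, 16 probe sets in all, and each gene is represented by the brightest of its probe sets over the 6 arrays. The genes were chosen by their place in the hormone pathway after Thrb and Thrsp had been seen to be higher on day 7. The differences between the ages are therefore given for all 7 as a description, with no p-value. Calls of these genes by the fit below restate that choice in part and are no independent evidence. Achilles tendons were taken from rats on post-natal day 1 and on post-natal day 7, with 3 arrays at each age and RNA from 2 or more animals on each array. The animals were untreated as far as the labels say, and no source used here gives their strain, their sex or their thyroid hormone levels. The p-values below for genes outside the 7 set the difference between the ages against the spread between pools of animals. That spread is moderated over all probe sets.

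Thyroid hormone reaches most tissues as thyroxine, which Dio2 converts inside the cell to the active hormone triiodothyronine (T3), while Dio3 inactivates both forms and is typical of fetal tissue. T3 binds the nuclear receptors encoded by Thra and Thrb, which sit on DNA with a retinoid X receptor, recruit corepressors without hormone and coactivators with it, and so repress or induce their target genes. In the rat the hormone's level in blood rises over the first weeks after birth, when many tissues change from fetal to adult gene programmes. In tendon cells both receptors have been described, and the hormone is known to act on their growth and matrix production.

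The samples carried the markers of tendon, with a day 1 mean intensity of 749 ± 147 and a day 7 mean of 812 ± 20.8 (SD, n = 3) for Scx, the transcription factor of tendon cells, and of 3518 ± 1122 and 5562 ± 1091 for tenomodulin, Tnmd. Of 9 measured tendon markers limma called 2 higher on day 7 and 1 lower (6 and 1 at an unadjusted p under 0.05). Their summed intensity was 27138.5 to 45250 on day 1 and 48049 to 62488 on day 7. Markers of other tissues also differed between arrays. Day 1 replicate 1 held a strong signal of epidermis and hair follicle, muscle markers were lower and adipocyte markers higher on day 7, and these values stand beside the genes they move with. The median intensity lay between 20.5 and 21.1 on the 6 arrays, and the ratio of actin signal at the 3′ end to that at the 5′ end, which rises as RNA degrades, between 1.80 and 3.35, highest on day 7 replicate 3. Probe sets for a bacterial trp transcript, which no rat RNA should light up, read between 3.74 and 4.76 and set the level below which no signal can be told from background.

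The 4 genes that limma's fit across all probe sets called higher on day 7 (adjusted p under 0.05) were Thrb, Thrsp, Klf9 and Dio3. Over all 14217 genes 1.93% were called higher, 3.15% lower and 5.08% in either direction, and since the genes were chosen on this contrast nothing is read from their count. The 250 bases before the annotated starts of the 4 genes are shown because these genes moved the same way. The sequences are RefSeq's, of the rat build GRCr8, and lie at chr15:10461447-10461696 (minus strand) for Thrb, chr1:161138965-161139214 (minus strand) for Thrsp, chr1:230126396-230126645 (plus strand) for Klf9 and chr6:135106822-135107071 (plus strand) for Dio3. Each is written 5′ to 3′ on the gene's strand, with the matches in capitals of 3 motifs searched on both strands, the TATA box TATAAA, the CCAAT box CCAAT and the GC box GGGCGG.
Thrb: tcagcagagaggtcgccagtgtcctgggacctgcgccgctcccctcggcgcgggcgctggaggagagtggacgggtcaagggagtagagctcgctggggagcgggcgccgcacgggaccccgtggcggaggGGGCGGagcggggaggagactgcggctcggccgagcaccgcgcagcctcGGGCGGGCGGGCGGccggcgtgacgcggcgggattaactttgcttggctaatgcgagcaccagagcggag
Thrsp: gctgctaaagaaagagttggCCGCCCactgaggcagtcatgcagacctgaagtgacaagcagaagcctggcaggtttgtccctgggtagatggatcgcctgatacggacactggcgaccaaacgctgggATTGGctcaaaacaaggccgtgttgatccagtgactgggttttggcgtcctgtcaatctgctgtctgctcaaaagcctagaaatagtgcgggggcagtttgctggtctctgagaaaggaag
Klf9: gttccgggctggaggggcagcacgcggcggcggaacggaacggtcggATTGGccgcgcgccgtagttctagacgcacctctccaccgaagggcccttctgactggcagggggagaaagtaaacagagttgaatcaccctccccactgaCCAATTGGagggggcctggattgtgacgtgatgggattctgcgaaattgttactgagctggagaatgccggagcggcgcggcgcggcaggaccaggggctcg
Dio3: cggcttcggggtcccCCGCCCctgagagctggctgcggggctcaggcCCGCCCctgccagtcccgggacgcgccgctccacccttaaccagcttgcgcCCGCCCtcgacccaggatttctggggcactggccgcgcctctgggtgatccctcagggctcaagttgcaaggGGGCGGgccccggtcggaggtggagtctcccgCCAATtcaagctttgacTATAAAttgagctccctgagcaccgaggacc

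The share of G and C was 74.0% for Thrb, 68.8% for Dio3, 63.6% for Klf9 and 54.0% for Thrsp. The median over 33469 rat promoters was 51.2%. The 4 windows differ in the motifs they hold. Thrb has 4 GC boxes, 3 of them overlapping in a run, and no TATA or CCAAT box. Dio3 has a TATA box 31 to 26 bases before its start, a CCAAT box 48 to 44 bases before it, and 4 GC boxes. Klf9 has 3 CCAAT boxes, 2 of them overlapping on opposite strands, and Thrsp has 1 CCAAT box, on the minus strand at 121 to 117 bases before the start, and 1 GC box. Over all promoters of this length, 12.9% hold the TATA motif, 34.0% the CCAAT motif and 30.5% the GC motif. The hexamer AGGTCA, to which thyroid hormone receptors bind, was in none of the 4 windows, nor in those of Thra, for which the table has 2 starts, or Dio2, while 14.1% of all promoters hold it on either strand. No match says only that these letters are not in these 250 bases. Of all the promoters 1 held a direct repeat of the hexamer with 4 bases between the copies.

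Thrb, the receptor that mediates much of the hormone's action in liver and in the pituitary, was higher on day 7. Its brightest probe set read 87.3, 74.8 and 56.7 on day 1 replicates 1, 2 and 3 and 266, 213 and 229.6 on day 7, so that every day 7 array lay above every day 1 array with a wide gap. The means were 73.0 ± 15.3 and 236 ± 27.1 (SD, n = 3), a 3.24-fold difference (log2 change 1.70, SE 0.17). The next probe set of Thrb was dimmer and gave nearly the same difference. It read 17.4, 12.4 and 11.03 on day 1 and 52.1, 38.9 and 42.5 on day 7 (log2 change 1.65, SE 0.18). On both probe sets replicate 1 was the highest array at each age. The remaining 2 probe sets of the gene lay close to the negative control, with means from 4.60 to 6.89, and had log2 changes of 0.49 and 0.18, so that the mean over the 4 probe sets gave 1.01.

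Thra, the more widely expressed receptor and the main one in bone and muscle, did not separate the ages. Its brightest probe set read 186, 207 and 143 on day 1 and 193, 224 and 203 on day 7, with means of 179 ± 32.3 and 207 ± 15.6 (SD, n = 3) and a log2 change of 0.22 (SE 0.15). Day 1 replicate 3 was the low array, and the ranges of the 2 ages overlapped. With 1 array left out the change of Thra ranged from 0.07, without that array, to 0.34, without day 1 replicate 2. A second bright probe set gave 142, 163 and 146 on day 1 and 206, 181 and 186 on day 7, where the ages did not overlap (log2 change 0.34, SE 0.11). The last lay near the negative control at both ages, with means of 4.75 and 4.27. Within each array the log2 value of Thrb relative to that of Thra was 1.47 higher on day 7 than on day 1. Set to the day 1 mean, this difference was 0.20, -0.17 and -0.04 on the day 1 arrays and 1.75, 1.22 and 1.46 on the day 7 arrays. This difference restates the choice of Thrb, was not tested, and says nothing about which receptor has more transcript. These are whole tendons, in which a larger share of cells with a transcript and more transcript per cell cannot be told apart.

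**Figure D1:**
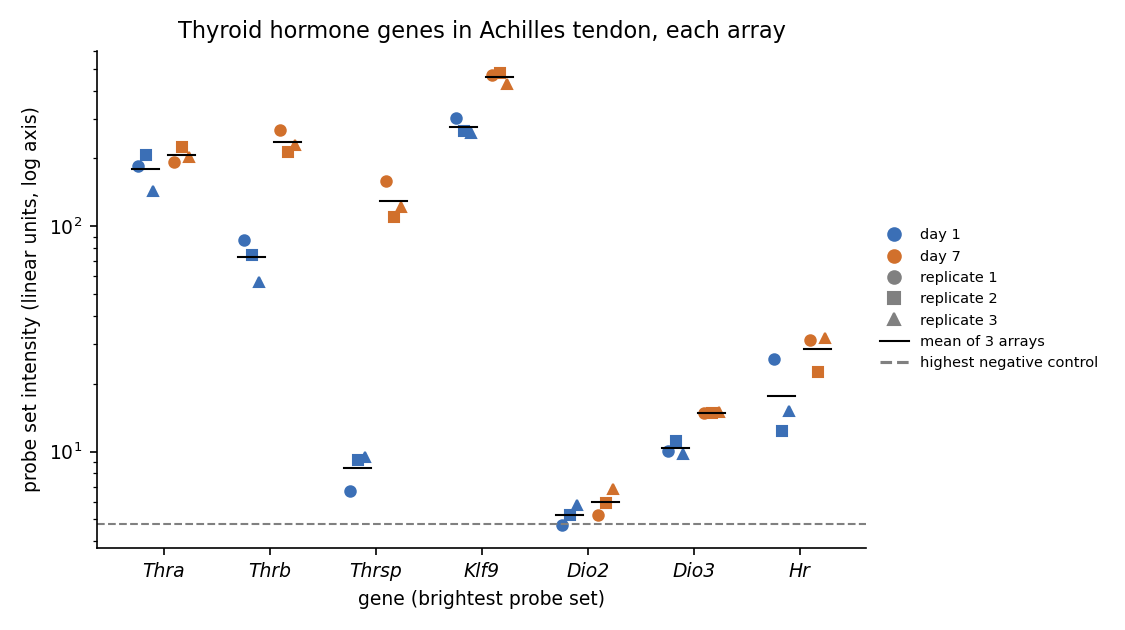
Intensity of the brightest probe set of each of the 7 genes on each array (log axis), with day 1 in blue, day 7 in orange, 1 symbol per replicate number, a black bar at the mean of 3 arrays and a dashed line at the highest negative control value of 4.76. The day 7 arrays of Thrb, Thrsp, Klf9 and Dio3 lie above all day 1 arrays, those of Thra, Dio2 and Hr overlap with them, and Dio2 lies close to the dashed line, with 1 array below it.

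The deiodinases were dim. Dio2, the activating enzyme, read 4.72, 5.24 and 5.77 on day 1 and 5.24, 5.89 and 6.81 on day 7 from its only probe set. These values reach down into the range of the negative control at 3.74 to 4.76, so no transcript level is given for Dio2 at either age, and its log2 change of 0.16 (SE 0.13) is no measure of a difference. Dio3, the inactivating enzyme, read 10.1, 11.2 and 9.76 on day 1 and 14.9, 14.8 and 15.01 on day 7, above the negative control on every array. That control rests on 3 probe sets. The thyroid gland genes Foxe1 and Tg read 7.17 to 12.2 and 7.96 to 9.20 over the 6 arrays. Lying above the control thus does not by itself show Dio3 transcript. The day 7 arrays were nearly identical and all above day 1, with means of 10.3 ± 0.760 and 14.9 ± 0.0935 (SD, n = 3) and a log2 change of 0.49 (SE 0.10). At such low intensities a fixed background can shrink a fold change, and a shift of dim probe sets between the ages can make one. Neither was tested for Dio3. The median log2 change was -0.01 over all genes and -0.10 among the brighter probe sets. With 16 in place of 1 added to each value, which lowers the change of any dim gene, the log2 change of Dio3 was 0.23. The fit no longer called Dio3 when any 1 of the 6 arrays was left out, with log2 changes of 0.45 to 0.54 in those fits, nor after quantile normalization (0.42).

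Dio3 lies in an imprinted domain with Dlk1 and the noncoding RNA Meg3, and these neighbours went the other way. Dlk1, a Notch ligand homologue of fetal and precursor cells, read 1844, 2089 and 2137 on day 1 and 1009, 1097 and 840.3 on day 7 and fell by 1.05 on the log2 scale (SE 0.13; limma adjusted p = 0.0141). Meg3 read 2580, 2770 and 2672 on day 1 and 1593, 1384 and 1893 on day 7 and fell by 0.73 (SE 0.13; adjusted p = 0.0332). Both were lower on every day 7 array than on any day 1 array. Begain, the other measured gene of the list, had a log2 change of 0.15 (adjusted p = 0.449). The difference between Dio3 and these genes was not tested.

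Hr encodes a corepressor of the thyroid hormone receptors that is itself induced by the hormone in brain and is needed for hair follicle cycling. It read 25.7, 12.3 and 15.1 on day 1 and 31.4, 22.5 and 31.8 on day 7, with means of 17.7 ± 7.05 and 28.5 ± 5.26 (SD, n = 3) and a log2 change of 0.71 (SE 0.26). The ages overlapped because day 1 replicate 1 lay above day 7 replicate 2. Of the 12 epidermis and hair follicle markers 11 were measured, and their summed intensity was 7266 on the highest and 184 on the lowest day 1 array, against 202 to 1078 on day 7. Limma called 0 of them, also at an unadjusted p under 0.05. Day 1 replicate 1, the highest array of its age for Hr, carried the skin keratins Krt5, Krt14 and Krt10 at 756, 697 and 2575, against at most 15.4, 13.4 and 59.2 on the other 2 day 1 arrays. The hair follicle keratin Krt71 read 452 on that array and 426 on day 7 replicate 1, against 16.2 to 37.2 on the remaining 4 arrays. Without day 1 replicate 1 the log2 change of Hr was 1.00. The part of skin or hair follicle in the Hr signal was not tested.

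Thrsp, a nuclear protein of lipogenic tissues whose transcript T3 induces in liver and fat, had the largest difference of the 7 genes. It read 6.68, 9.23 and 9.49 on day 1, not far above the negative control, and 158, 110.3 and 121 on day 7. The means were 8.47 ± 1.55 and 130.0 ± 25.1 (SD, n = 3). The log2 change was 3.79 (SE 0.18), or 13.8-fold on the log2(value + 1) scale. Its other probe sets showed the same direction with different sizes. One read 6.16 to 7.90 on day 1 and 132, 86.1 and 67.2 on day 7 (log2 change 3.53, SE 0.23), and the last read 5.33 to 9.55 on day 1 and 31.3, 35.4 and 31.5 on day 7 (2.06, SE 0.18). The fold change depends on how the low day 1 values are treated, and the log2 change was 2.57 with 16 added to each value and 3.13 over the mean of the probe sets. Thrsp was still called in all 6 fits that left out 1 array, with log2 changes of 3.64 to 3.90. Thrsp was chosen because it rose on these arrays, so these calls are no independent support.

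Klf9, a zinc finger transcription factor and direct T3 target that glucocorticoids and the circadian clock also induce, was bright at both ages and higher on day 7. It read 303, 263 and 260.3 on day 1 and 467, 477 and 428 on day 7, with no overlap. The means were 276 ± 23.8 and 457 ± 25.9 (SD, n = 3), a 1.66-fold difference (log2 change 0.73, SE 0.11). A dim second probe set read 11.1 to 13.5 on day 1 and 14.2 to 16.4 on day 7 (log2 change 0.32, SE 0.12), and the last lay near the negative control with a change of -0.03. The mean over the 3 probe sets gave 0.34, which the fit did not call. Leaving out 1 array kept the log2 change between 0.69 and 0.80, but Klf9 passed in 2 of these 6 fits, those that left out a replicate 2.

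**Figure D2:**
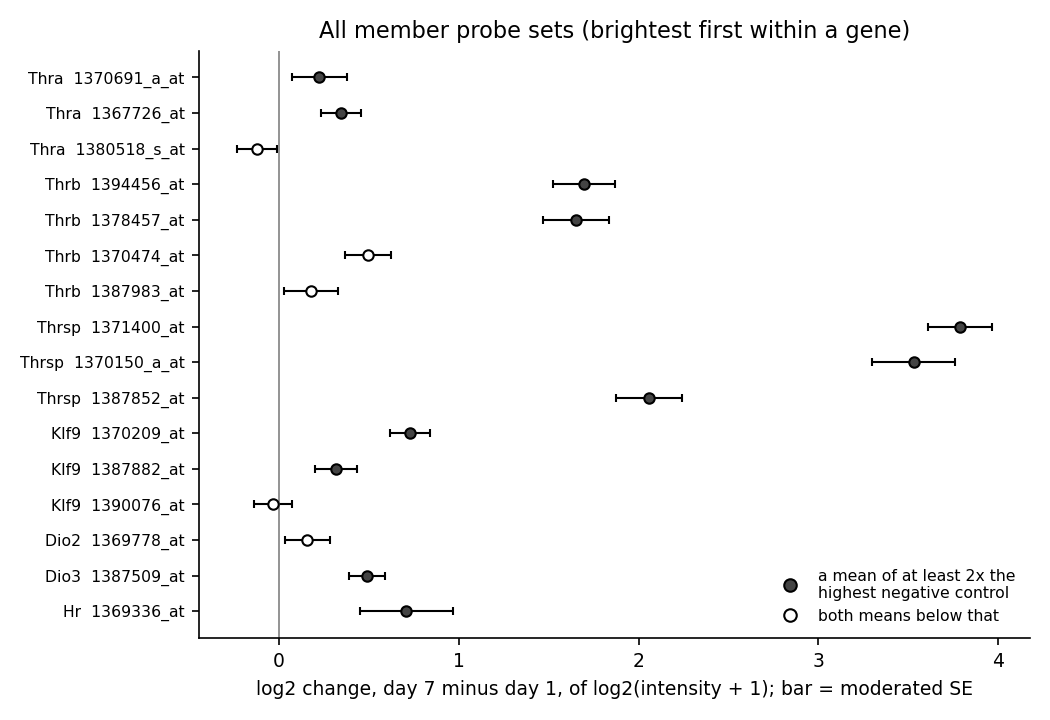
Log2 change (day 7 minus day 1, with moderated SE) of each of the 16 probe sets of the 7 genes, the brightest of each gene first, filled where the mean at either age was at least 2 times the highest negative control value. The 2 bright probe sets of Thrb (1.70 and 1.65) and the 3 of Thrsp (3.79, 3.53 and 2.06) lie well above 0, and the open points, which are close to background, lie between -0.12 and 0.49.

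Counted over the 7 genes, limma called 4 higher on day 7 and none lower, and the same 4 had all day 7 arrays above all day 1 arrays. Of all genes, 14.0% had every day 7 array above every day 1 array and 19.1% every one below. Of the 16 probe sets of the group 7 were called higher and 0 lower, against 1.36% and 2.15% of all probe sets. Most of these 7 belong to Thrb and Thrsp, whose rise led to the choice, and probe sets of 1 gene are not independent. Nothing is read from these counts. At an unadjusted p under 0.05 limma's fit had 1506 genes higher and 2411 lower. The array left out decides how many genes pass: without day 7 replicate 1 the whole-array counts were 4 higher and 0 lower (1136 and 1869 at an unadjusted p under 0.05), against 274 and 448 with all arrays, and of the 7 genes only Thrsp was then still called, with Thrb at a log2 change of 1.61. Leaving out day 1 replicate 1 gave 26 higher and 37 lower genes. Leaving out day 1 replicate 3 gave 61 and 107, and leaving out day 7 replicate 3 gave 87 and 79.

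**Figure D3:**
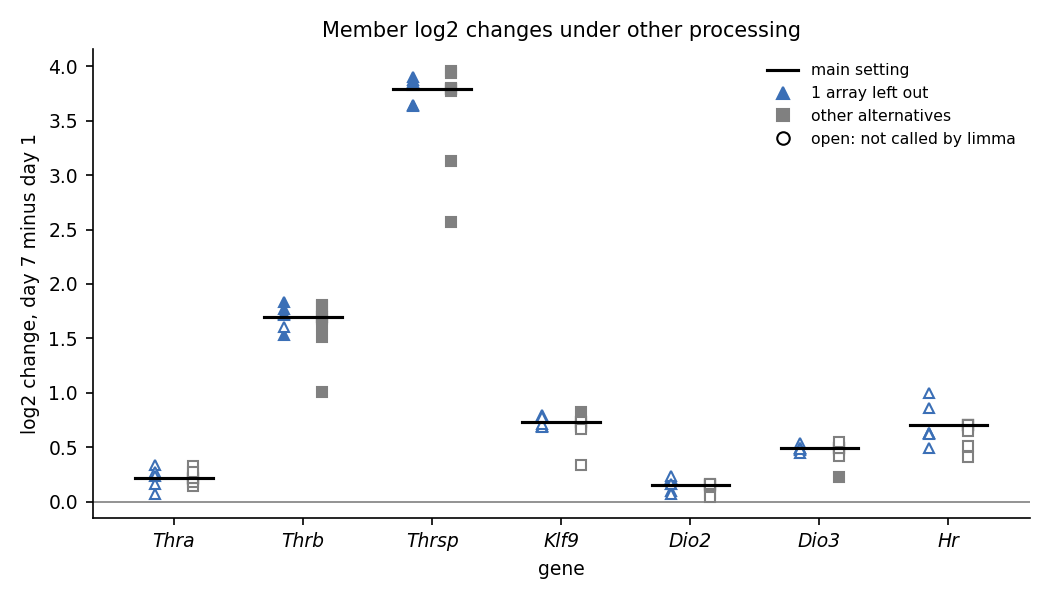
Log2 change (day 7 minus day 1) of the 7 genes as analysed (black bar), with each array left out in turn (triangles) and under the other processing alternatives (squares), open where limma's fit did not call the gene. Every point lies above 0, and the widest ranges are those of Thrsp (2.57 to 3.96) and Thrb (1.01 to 1.84).

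Thrsp moved with markers of fat cells. Of 12 adipocyte markers 11 were measured, 7 rose on day 7 and none fell, and their summed intensity was 1700 to 1847 on day 1 and 2952 to 5756 on day 7. Adiponectin, Adipoq, read 8.47 to 13.5 on day 1 and 385, 188 and 477 on day 7, while leptin, Lep, stayed at 4.99 to 6.82 on all 6 arrays. The median of the list, relative to the mean of the 6 arrays on the log2 scale, was 0.90, 0.34 and 1.04 on day 7 replicates 1, 2 and 3, and Thrsp stood at 2.19, 1.68 and 1.81. Both were lowest on replicate 2, but the highest array was replicate 3 for the markers and replicate 1 for Thrsp. Of 6 brown fat markers none passed limma (1 lower at an unadjusted p under 0.05), and the thermogenic gene Ucp1, a classical T3 target, read 4.48 to 5.79. The part of fat cells in the Thrsp result was not tested.

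Thrb and Klf9 are set beside the markers of muscle, myelin, cartilage and other tissues. Relative to the mean of the 6 arrays, Thrb stood at 1.03, 0.71 and 0.81 on the day 7 replicates and Klf9 at 0.40, 0.43 and 0.27. Replicate 2 was thus the lowest of the day 7 arrays for Thrb and the highest for Klf9. On that array the median of the 8 measured Schwann cell and myelin markers stood at -0.47, against 0.61 and 0.96 on the other day 7 arrays. All 12 muscle markers were measured, with summed intensities of 56960 to 69267 on day 1 and 33670 to 49369 on day 7, and 5 fell and none rose. Of 10 measured cartilage markers 2 rose and none fell, with sums of 1970 to 4985 on day 1 and 5356 to 8951 on day 7. Of the measured endothelial and macrophage markers, 7 and 8, limma called 1 higher in each list and 0 lower. At an unadjusted p under 0.05 limma's fit had 3 endothelial markers higher and 0 lower, and 1 macrophage marker higher and 3 lower. The median of the 9 measured tendon markers stood at -0.16, 0.06 and -0.69 on the day 1 arrays and 0.50, 0.20 and 0.15 on the day 7 arrays. Whether any of these tissues, tendon included, contributes to Thrb, Klf9 or Dio3 was not tested.

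**Figure D4:**
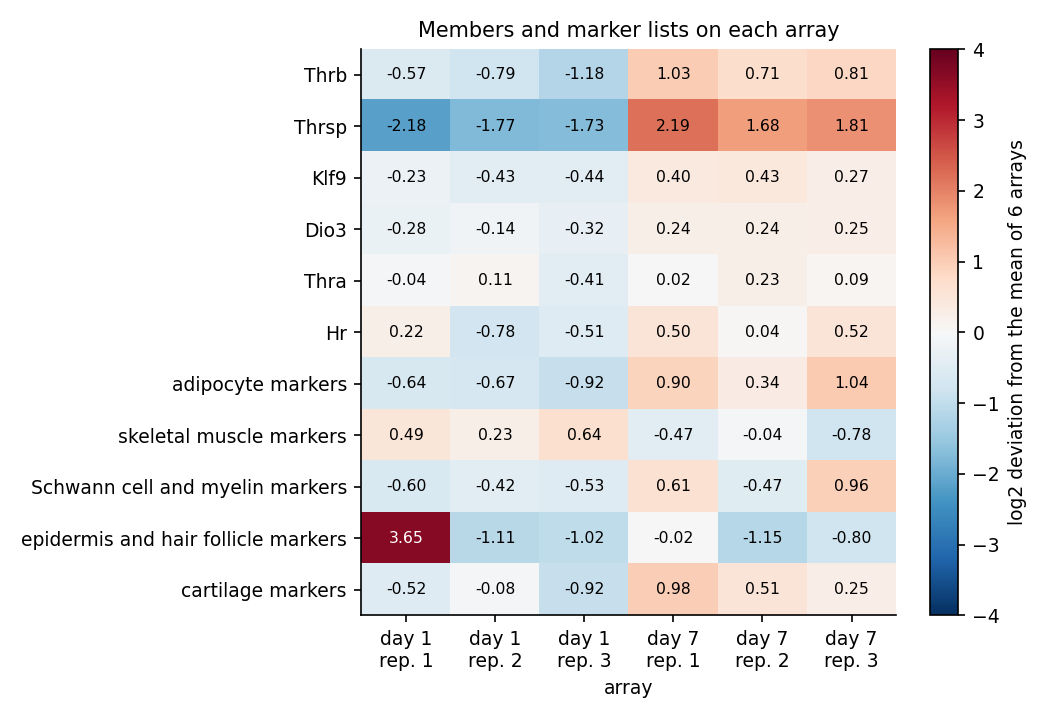
Log2 deviation from the mean of the 6 arrays for 6 of the 7 genes and, below them, the median deviation of 5 lists of cell type markers, 1 column per array (red above the mean, blue below). Thrb, Thrsp, Klf9 and Dio3 are below the mean on all day 1 arrays and above it on all day 7 arrays, whereas the epidermis and hair follicle list stands at 3.65 on day 1 replicate 1 alone and the myelin list at -0.47 on day 7 replicate 2.

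The rest of the hormone pathway and some related gene groups were read from 11 lists. These hold 143 measured genes outside the 7, called pathway genes here. Lipogenesis, the Dlk1-Dio3 domain, the Klf family, glucocorticoid-induced genes and other nuclear receptors are the related groups, not parts of the hormone pathway. Of these 143, limma called 7 higher and 5 lower, or 4.90% and 3.50% against 1.93% and 3.15% of all genes, and their median log2 change was 0.02 against -0.01 over all genes. The higher ones were genes of fat or sterol metabolism or, for Pck1, of glycerol synthesis, except for Sgk1, a kinase that glucocorticoids induce. In the lists of the hormone pathway itself limma called only Scd and Pck1 higher and Rxrg lower. All 11 lists were written with earlier results of these arrays known, so the count is no independent evidence. None of the 12 calls was kept without day 7 replicate 1. Without the other arrays the counts were 1 higher and 1 lower (day 1 replicate 1), 6 and 3 (day 1 replicate 2), 3 and 3 (day 1 replicate 3), 13 and 5 (day 7 replicate 2) and 4 and 4 (day 7 replicate 3).

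Genes that bring the hormone into cells or bind it did not pass. Of 11 measured transporters and binding proteins limma called 0, also at an unadjusted p under 0.05, and the median log2 change was 0.09. Slc7a5 and Slc3a2, the 2 chains of an amino acid carrier that also takes up thyroid hormone, stood at log2 changes of -0.30 and 0.14 (limma adjusted p of 0.371 and 0.467), and the thyroxine carrier Slco1c1 lay near the negative control with means of 4.795 and 5.63 (0.20; 0.352). Of 10 genes of hormone inactivation and deiodinase turnover limma called 0 (2 lower at an unadjusted p under 0.05). Here the median was -0.09. The lowest p was that of Usp20, a deubiquitinase that stabilises Dio2 protein (log2 change -0.58, SE 0.13; adjusted p = 0.0592), which passed with array weights and among the brighter probe sets (adjusted p from 0.0439 to 0.187 over 15 alternatives) and had a change of -0.30 over the mean of its probe sets. Its relative Usp33 had a change of -0.30 (0.261) and Secisbp2, which allows selenocysteine to be built into deiodinases, one of -0.29 (0.177). Dio1, the deiodinase of liver and kidney, read 5.11 and 5.57 on average, near the negative control.

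Among 20 measured receptor partners, corepressors and coactivators only Rxrg fell and none rose. The median log2 change was -0.07. Rxrg, a retinoid X receptor of skeletal muscle and brain that pairs with the thyroid hormone receptors, read 121, 146 and 195 on day 1 and 49.5, 58.2 and 51.1 on day 7. It fell by 1.501 on the log2 scale (SE 0.18; limma adjusted p = 0.0141), and every day 7 array lay below every day 1 array. Over the mean of its probe sets the log2 change was -0.76. The muscle markers moved the same way on these arrays, with a median of -0.91, and their part in the fall of Rxrg was not tested. The other 2 retinoid X receptors, Rxra and Rxrb, stood at log2 changes of 0.05 and -0.15 (0.897 and 0.488). The coactivators Ppargc1b and Ncoa3 had values of -0.45 and 0.45, short of the threshold (0.102 and 0.125).

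Of 32 measured genes that T3 is known to induce, 2 rose and none fell. Their median log2 change was 0.08, and 21 of the 32 had a change above 0, as did 48.0% of all genes. At an unadjusted p under 0.05 there were 11 higher and 4 lower, against 1506 and 2411 of all 14217 genes. The 2 that rose are also genes of fat cells: Pck1, an enzyme of glycerol and glucose synthesis, read 17.8, 20.2 and 38.5 on day 1 and 508, 265 and 855 on day 7 (log2 change 4.28, SE 0.43; adjusted p = 0.0111), and the fatty acid desaturase Scd had a log2 change of 3.33 (SE 0.61; 0.0336). The mitochondrial carrier Ucp2 had a change of -0.92 (0.0623). The muscle calcium pumps Atp2a1 and Atp2a2, which T3 induces in muscle and heart, had changes of -0.81 and -0.41 (0.138 and 0.305), beside the muscle markers' median of -0.91. Of 4 genes that T3 represses limma called 0, also at an unadjusted p under 0.05, and Myh7, the slow myosin heavy chain, had means of 6295 ± 1425 and 5752 ± 969.8 (SD, n = 3) and a change of -0.12 (adjusted p = 0.762). Cga and Trh, genes of the pituitary and hypothalamus, lay near the negative control with changes of 0.12 and -0.14 (0.705 and 0.575).

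Of 18 measured lipid synthesis genes around Thrsp, 5 rose on day 7 and none fell, and the median log2 change was 0.48 against -0.01 over all genes. The adipocyte markers moved the same way, with 7 of 11 higher and a median of 1.33, and the part of fat cells in these genes was not tested. Besides Scd these were Agpat2, an acyltransferase of triglyceride synthesis (2.09, SE 0.33; adjusted p = 0.0243), Lpin1, a phosphatidate phosphatase (0.95, SE 0.11; 0.0141), Insig1, which holds sterol-regulated factors in the endoplasmic reticulum (0.96, SE 0.19; 0.0415), and the lipogenic transcription factor Srebf1 (0.91, SE 0.14; 0.0238). Lpin1 read 33.3, 31.6 and 29.7 on day 1 and 56.7, 62.1 and 66.6 on day 7, and Srebf1 read 80.5, 84.5 and 76.2 on day 1 and 157, 125 and 176 on day 7. Neither overlapped between the ages. Mid1ip1, the close relative and partner of Thrsp, had a change of 0.41 (adjusted p = 0.147), and fatty acid synthase, Fasn, one of 0.54 (0.123). Agpat2, Insig1 and Scd did not pass with 16 added to each value.

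The other Klf factors did not show the difference of Klf9. Of 13 measured relatives limma called 0 (1 lower at an unadjusted p under 0.05). The median log2 change over these was -0.07, and the lowest p-values were those of Klf6 (-0.36; adjusted p = 0.114), Klf5 (-0.43; 0.229) and Klf4 (-0.25; 0.323). Whether Klf9 differs from them was not tested. Genes that glucocorticoids induce, as they do Klf9, went both ways. Of 15 measured, Sgk1 rose (0.88, SE 0.13; adjusted p = 0.0223), and Fkbp5, a chaperone of the glucocorticoid receptor (fell by 1.04, SE 0.18; 0.0303), and Pdk4, which inhibits the pyruvate dehydrogenase complex (fell by 2.16, SE 0.26; 0.0141), were lower. The change of Pdk4 was -1.37 over the mean of its probe sets. The receptor itself, Nr3c1, had a change of 0.21 (0.571).

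**Figure D5:**
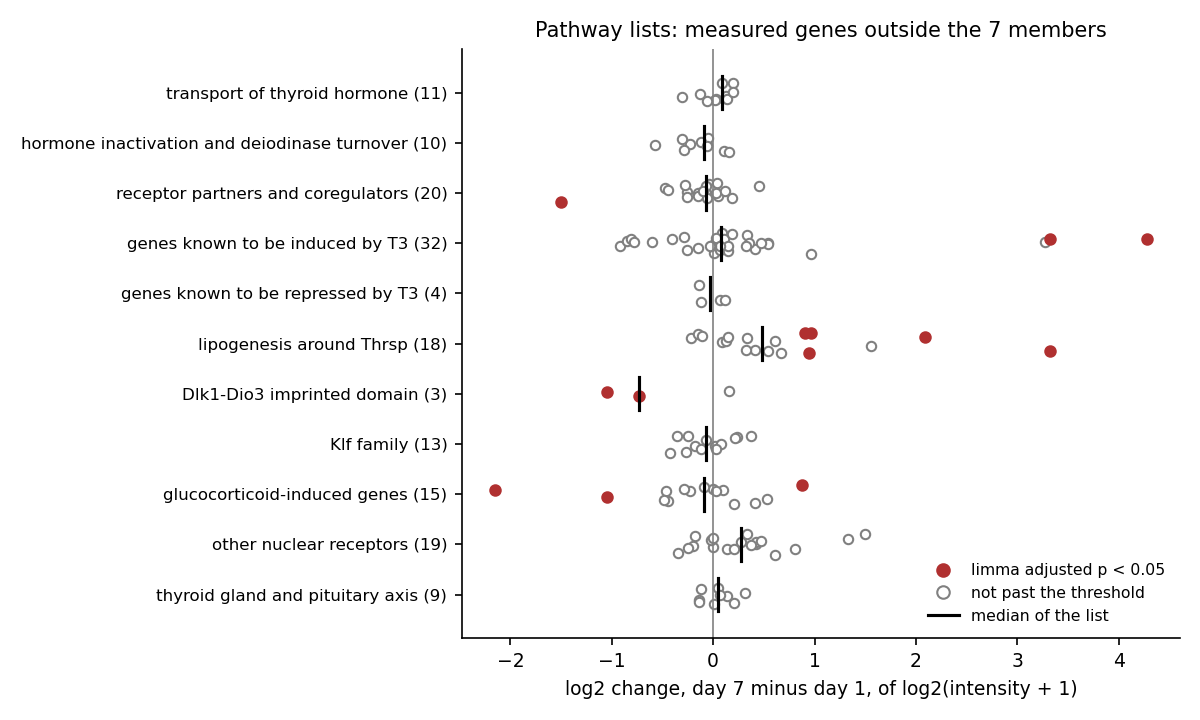
Log2 change (day 7 minus day 1) of each measured gene in the 11 pathway lists, with the number of genes in brackets, filled red where limma's adjusted p was under 0.05 and with a black bar at the list's median. Called genes lie to the right among the lipogenesis genes, whose median is 0.48. Pck1 and Scd among the T3-induced genes and Sgk1 among the glucocorticoid-induced genes also lie to the right. Rxrg, Dlk1, Meg3, Fkbp5 and Pdk4 lie to the left, while the medians of most other lists lie near 0.

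Of 19 other nuclear receptors limma called 0 (7 higher and 1 lower at an unadjusted p under 0.05). Their log2 changes had a median of 0.28. Some of them are neighbours of the thyroid hormone receptors on the chromosome. In the RefSeq gene table of GRCr8, Thra overlaps Nr1d1, the clock repressor REV-ERB alpha, and Thrb has Rarb next to it and the second clock repressor, Nr1d2, as its second neighbour on the other side. Nr1d1 read 21.1, 19.1 and 35.5 on day 1 and 120, 57.6 and 50.5 on day 7 (log2 change 1.496, SE 0.35; adjusted p = 0.0585, and 0.0251 to 0.175 over 15 alternatives, 5 of which called it). Nr1d2 had means of 113 ± 21.3 and 202 ± 60.3 (SD, n = 3; 0.81, adjusted p = 0.0890), and Rarb of 106 ± 18.7 and 105 ± 3.31 (adjusted p = 0.997). No source used here gives the hour of harvest. Pparg, the receptor of fat cell differentiation, had a change of 1.33 (0.0669), and Rarg one of 0.42 (0.0821).

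Of the measured genes beside the other members, limma called 1. Next to Thrsp, Ndufc2 and Kctd14 had log2 changes of -0.16 and 0.44 (limma adjusted p = 0.553 and 0.354). Smc5, beside Klf9, had one of -0.05 (0.856), while Mamdc2, a matrix protein gene 1 step further, rose by 1.55 (SE 0.28; 0.0326). Ppp2r5c, next to Dio3, had a change of 0.30 (0.212), and Nudt18, next to Hr, one of 0.71 (0.0597). Next to Dio2, Nrxn3 and Cep128 had changes of 0.14 and -0.79 (0.544 and 0.0525). The thyroid gland's own genes ranged from near the negative control to about the median intensity of an array. On day 1 and day 7 the means were 4.98 and 5.18 for Slc5a5, 16.8 and 21.1 for Pax8 and 24.9 and 21.7 for Tshr. Of 9 measured genes of the gland and its pituitary control limma called 0 (1 higher at an unadjusted p under 0.05), thyroglobulin, Tg, read 8.51 ± 0.629 on day 1 and 8.57 ± 0.215 on day 7 (SD, n = 3), and the changes of Pax8 and Duox2 were 0.32 and 0.21 (0.202 and 0.308).

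The genes whose log2 values followed the members most closely over the 6 arrays were found among 1100 genes (1099 for Thrb) brighter than the median gene and with a range of at least 1 on the log2 scale. Thrb was nearest to Crabp1, a retinoic acid binding protein (Pearson r = 0.993 over 6 arrays), which read 109, 80.5 and 63.1 on day 1 and 329, 276 and 243 on day 7. Sult5a1 and Aldh2 followed with r of 0.991 and 0.987. Klf9 was nearest to Bcat1, a branched-chain amino acid transaminase (0.995), and Crabp1 came second there as well (0.989). Thrsp was nearest to the limb homeobox gene Hoxa11 (0.994), followed by Fgl2 and Sapcd1. Only the 3 nearest genes were kept, so this ranking does not show how closely the adipocyte markers followed Thrsp. Hoxa11 read 103, 116 and 113 on day 1 and 223, 186 and 196 on day 7. Dio3 was nearest to Naaa, an amidase of lipid amides (0.992), then to Sapcd1 and Lrg1. For Thra the nearest was Nfix (0.965) and for Hr it was Echdc1 (0.945), with the sterol-regulated Insig1 among its 3 nearest (0.917). With 6 arrays that fall into 2 ages, many genes reach such values, and the correlations describe these arrays only.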

How the data were processed

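The authors deposited a linear intensity for each probe set on each array. MAS5 and RMA appear in the submitters' processing notes, with no role given for either. Background correction, scaling and genome build were not given in the sources used here. Values were taken as log2(value + 1) without further normalization. The 57 control probe sets were dropped and 31042 were tested. Of these, 20826 name 1 gene in the platform annotation, 436 several and 9780 none. Symbols were checked by gene identifier against RefSeq's table of GRCr8 (20758 matched, 0 changed). Day 7 was compared with day 1 by limma 3.58.1 (lmFit, eBayes) in R 4.3.3, two-sided, over all probe sets, with Benjamini-Hochberg adjustment and a threshold of 0.05. The fit was tested on simulated data. SE is limma's moderated standard error, and fold changes are on the log2(value + 1) scale, which understates those of dim genes.

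The members and all gene lists were chosen with earlier results of these data known. The genes named outside the 7 were those past the threshold in a pathway list and the 3 with the lowest p in each. Genes among the 3 nearest to a member in pattern were also named, though not all of them and none for Dio2. Further genes were named after their values were seen: Scx, Tnmd, Krt5, Krt14, Krt10, Krt71, Adipoq, Lep, Ucp1, Dio1, Rxra, Rxrb, Atp2a1, Atp2a2, Mid1ip1, Fasn, Nr3c1, Nr1d2, Rarb, Tg, Foxe1, Slc5a5, Tshb, Tshr and the chromosome neighbours. Alternatives were quantile normalization, median centring, a pseudocount of 16, a filter keeping the brighter part of the probe sets, a gene's value as the mean over its probe sets, array weights, an intensity trend with robust variances, the replicate number as a block and each array left out. A fit without both arrays numbered 2, which lay nearest to the other age on the first principal component, was added after seeing the data. The number of arrays limits the precision.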

Additional observations from a re-analysis of the deposited data

How the results depend on the processing

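The log2 changes of the 7 genes kept a positive sign in each alternative run, 15 per gene and 14 for Dio2 and Dio3, which the filter on dim probe sets removed. They moved by more than the spread between replicates in 6 cases: over the mean of the probe sets for Thrb (1.01), Thrsp (3.13) and Klf9 (0.34), with a pseudocount of 16 for Thrsp (2.57) and Dio3 (0.23), and after quantile normalization for Dio3 (0.42). Limma's fit called Thrsp in 15 of 15, Thrb in 14, Klf9 in 8 and Dio3 in 4 of 14 alternatives. The runs reuse the arrays on which Thrb and Thrsp were chosen, so these counts show only the dependence on processing.

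Over all genes, 274 higher and 448 lower calls became 538 and 897 with array weights, 182 higher with a pseudocount of 16, and 352 and 320 after quantile normalization, so that the share of higher calls was 38.0% as deposited and 52.4% after it. With 1 array left out they ranged from 4 to 271 higher and from 0 to 382 lower. The 7 higher and 5 lower pathway genes became 4 higher with a pseudocount of 16, 11 and 8 among the brighter probe sets, 11 higher with the mean of the probe sets, 13 and 8 with array weights and 13 higher without both arrays numbered 2. With 1 array left out they ranged from 0 to 13 higher and from 0 to 5 lower. In limma's fits with 0 pathway calls, 22 were higher and 15 lower at an unadjusted p under 0.05 without day 7 replicate 1. The sign of 2 uncalled genes reversed, that of Cga without day 7 replicate 3 and that of Myh7 without day 1 replicate 1. With 1 array left out Cga ranged from -0.049 to 0.22 and Myh7 from -0.29 to 0.040. The cause of these shifts was not tested.

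The replicate numbers do not pair the samples by the labels, and the deviations of same-numbered arrays from their age means correlated at 0.130, -0.274 and -0.0898. Arrays with different numbers correlated at -0.225 to 0.285. With 3 arrays per age these values cannot decide whether same-numbered samples share more than a number. With the replicate number as a block, 25 genes were higher and 8 lower, and 2 pathway genes were higher and 0 lower (14 lower at an unadjusted p under 0.05). Genes near the negative control level of 4.76 have no reliable fold change.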
